A study of Mus musculus with 12 samples.

Results

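The dopamine genes of the mouse hypothalamus were followed over 12 mice: Th, Ddc, Gch1, Slc18a2, Slc6a3, Dbh and Prlr, which encode the enzymes that make dopamine, its transporters, the enzyme that turns it into noradrenaline, and the prolactin receptor. The 7 genes were found through the gene symbols of the deposited normalized table and had 12 of the 56605 non-control probes on the array. Of these 12, 10 were among the 35230 probes that the scanner called well above background in every mouse of 1 or more groups, and those were tested. The other 2, the dimmer probe of Dbh and a probe for a second Prlr transcript, were not.

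The hypothalami came from male mice, labeled as 6 to 7 weeks of age, the age at which training began. Wild-type control mice (WT) and Asmt-knockout control mice (KO) did not swim, and wild-type mice trained by swimming (exercised WT) and Asmt-knockout exercise mice (KE) swam daily for weeks, with 1 array for each of 3 mice per group. The knockout was made by injecting Cas9 mRNA and a guide RNA into C57BL/6 zygotes, founders carrying a short deletion were backcrossed to wild-type littermates, and homozygous animals were compared with those littermates. Asmt encodes the last enzyme of melatonin synthesis, and C57BL/6 mice, the strain behind all 4 groups, make little melatonin. The Asmt probe lay between 1.83 and 2.49 on the log2 scale and was well above background on 0 of the 12 arrays, in wild-type mice as well, so the arrays do not check the genotype labels.

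Dopamine is made from tyrosine by tyrosine hydroxylase (Th), which needs the cofactor tetrahydrobiopterin that GTP cyclohydrolase (Gch1) begins to build, and by aromatic amino acid decarboxylase (Ddc). Vesicular monoamine transporter VMAT2 (Slc18a2) loads it into vesicles, the dopamine transporter (Slc6a3) takes it back up, and dopamine beta-hydroxylase (Dbh) converts it to noradrenaline in noradrenergic and adrenergic neurons. In the hypothalamus, dopamine neurons of the arcuate nucleus release dopamine to the pituitary, where it holds back prolactin, and prolactin acts on the same neurons through its receptor (Prlr). Dopamine neurons of the ventral midbrain lie just behind the hypothalamus and carry far more of the transporter per cell.

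Since several of these genes moved together from mouse to mouse, the sequences read by their second probes and the bases before the starts of Th and Slc6a3, which were both highest in WT replicate 2 and next in KE replicate 2, are given here. The 60-base probes of Th (chr7:150080370-150080581, minus strand, where a span of 212 bases shows that the probe crosses an exon junction), Ddc (chr11:11776262-11776321, minus strand), Dbh (chr2:27037081-27037140, plus strand) and Prlr (chr15:10255629-10255688, plus strand), with positions of the array annotation on build mm9, each had 2 forward reading frames without a stop, as did the brighter Th probe, and their place in the coding sequence was not determined.
Th: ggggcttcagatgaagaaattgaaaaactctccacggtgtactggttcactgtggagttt
Ddc: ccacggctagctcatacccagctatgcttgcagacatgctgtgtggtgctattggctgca
Dbh: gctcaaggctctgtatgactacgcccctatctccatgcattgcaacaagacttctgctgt
Prlr: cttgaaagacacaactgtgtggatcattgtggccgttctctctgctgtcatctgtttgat

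The 250 bases before the annotated starts of Th (chr7:142899996-142900245, minus strand) and Slc6a3 (chr13:73536497-73536746, plus strand), from RefSeq on GRCm38.p6, are written 5′ to 3′ with motif matches in capitals.
Th: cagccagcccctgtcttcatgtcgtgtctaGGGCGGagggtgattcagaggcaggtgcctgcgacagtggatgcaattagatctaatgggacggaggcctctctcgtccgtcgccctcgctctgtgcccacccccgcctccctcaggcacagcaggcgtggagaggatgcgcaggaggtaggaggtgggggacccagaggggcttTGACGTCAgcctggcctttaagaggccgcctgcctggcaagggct
Slc6a3: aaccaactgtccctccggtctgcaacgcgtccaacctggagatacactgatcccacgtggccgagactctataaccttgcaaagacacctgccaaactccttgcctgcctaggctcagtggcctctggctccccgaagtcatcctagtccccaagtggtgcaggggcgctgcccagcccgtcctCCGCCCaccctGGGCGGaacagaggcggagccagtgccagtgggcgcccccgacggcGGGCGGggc
The capitals mark the cAMP response element (TGACGTCA) and the GC box (GGGCGG, or CCGCCC for the other strand). The Th window held the cAMP response element at position -45 from the start and a GC box at -220, and the Slc6a3 window held GC boxes at -66, -55 and -9 and no cAMP response element. Of 32851 windows of the same length, 1.55% held the cAMP response element and 32.7% a GC box on either strand. Also searched on both strands and in neither window were TATAAA, the TATA box (12.4% of windows), the letters AAAGGTCA read by Nr4a factors (1.34%), the letters TAATCC read by Pitx factors (6.25%), and the forkhead letters TGTTTAC (3.17%) and, as an alternative spelling of them, TATTTAC (2.73%). These matches describe the letters and were not tested as sites.

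The arrays lay on 2 slides. The first carried all WT mice with KO replicates 1 and 2. The second carried KO replicate 3 and all exercised WT and KE mice, so that KO versus WT could be read within the first slide, KE versus KO within the second slide against KO replicate 3 alone, and KE versus exercised WT wholly within the second, whereas exercised WT and WT never shared a slide. Each array held 59305 spots, of which 36543 to 40276 were well above background and 0 were saturated. All values below are normalized log2 signals of a probe, and a brighter probe was not read as a more abundant RNA, so that the brightest gene of a list and the sum over a list describe probe signals only. The tissue carried hypothalamic markers: all 18 of 18 on a list of neuropeptides, transcription factors and the enzyme gene Hdc were tested, with oxytocin (Oxt) at 16.59 to 17.24. The factor Sim1, 1 of these 18, read 4.10 to 5.08 on the first slide and 6.21 to 7.23 on the second, KO replicate 3 included, and between exercised WT and WT its log2 fold change met the screening criterion, a fold change of 2 or more in either direction together with an unadjusted p no higher than 0.05, in opposite directions: it was 2.01 without a slide term and -1.10 when slide was a block. In such tissue RNA, a smaller number of cells of a type and less RNA per cell cannot be told apart.

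Slc6a3 varied more between mice than any other member that was well above background on all 12 arrays, with a range of 13.75-fold. Its signal was 9.63, 12.61 and 9.01 in WT replicates 1 to 3, 9.89, 9.27 and 9.74 in KO, 9.28, 10.55 and 8.83 in exercised WT, and 9.13, 11.87 and 9.54 in KE (chr13:73715973-73716032, mm9). WT replicate 2 and KE replicate 2 stood apart at the top and exercised WT replicate 2 followed, while the other 9 arrays lay between 8.83 and 9.89. WT replicate 2 exceeded the mean of the other 2 WT arrays by 3.29, and KE replicate 2 exceeded the mean of the other 2 KE arrays by 2.54. The SD was 1.92 in WT (mean 10.42, n = 3) and 1.48 in KE (mean 10.18, n = 3), against 0.32 in KO (mean 9.63, n = 3) and 0.89 in exercised WT (mean 9.55, n = 3). The groups overlapped in every comparison. The log2 fold change was -0.79 ± 0.96 (SE) in KO versus WT and -0.87 ± 0.96 in exercised WT versus WT, with unadjusted p of 0.431 and 0.387 by limma. Both turned positive without WT replicate 2, to 0.31 and 0.23. In KE versus KO it was 0.55 ± 0.96 and in KE versus exercised WT 0.63 ± 0.96 (unadjusted p of 0.580 and 0.527), and both turned negative without KE replicate 2, to -0.30 and -0.22. The interaction was 1.41 ± 1.35 (unadjusted p = 0.321, adjusted p = 0.839) and, leaving out WT and KE replicate 2 together, -0.53.

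**Figure D1:**
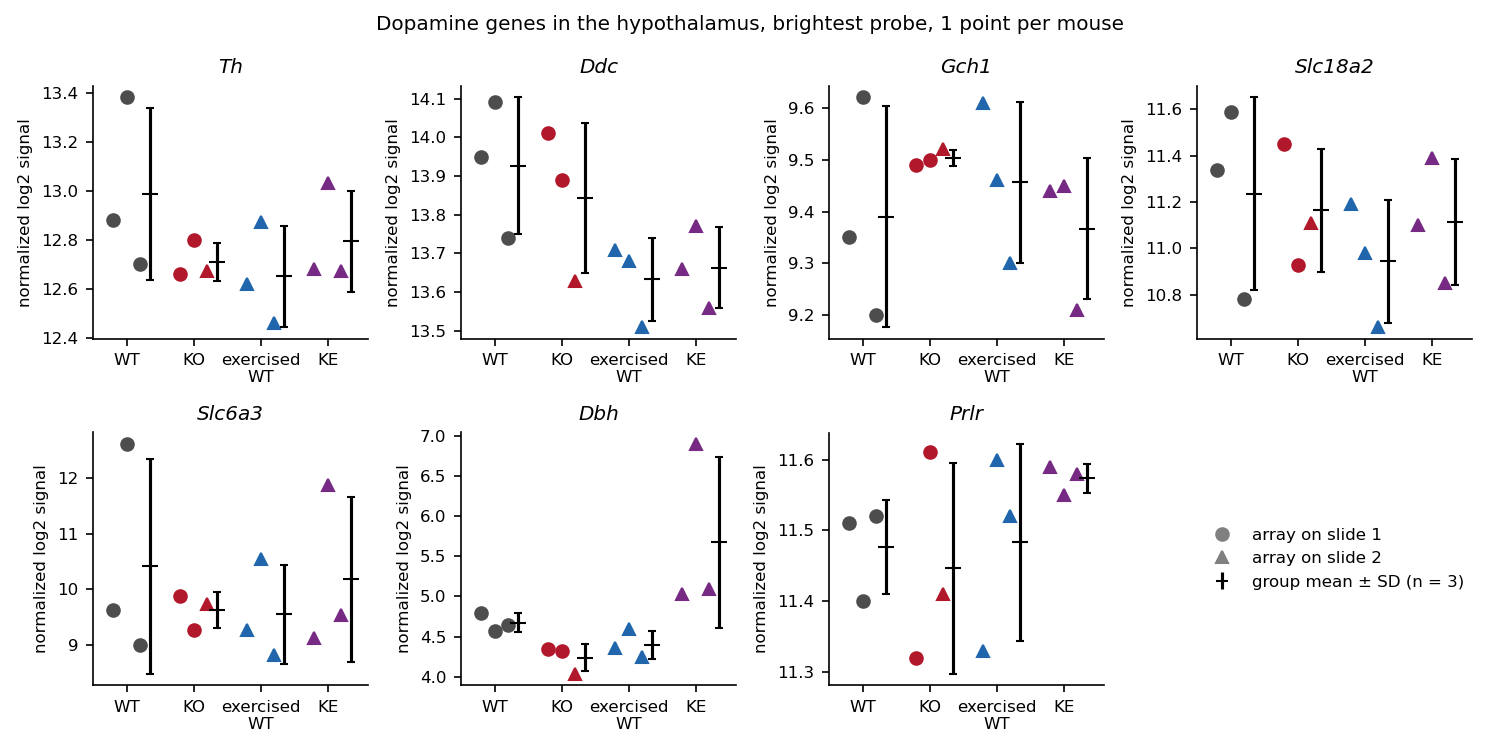
Normalized log2 signal of the brightest probe of each of the 7 genes, with 1 point per mouse in the WT, KO, exercised WT and KE groups, circles for slide 1 and triangles for slide 2, and bars for the group mean ± SD (n = 3). Each panel has its own vertical scale. WT replicate 2 was the highest of 12 arrays for Th, Ddc, Gch1, Slc18a2 and Slc6a3, and the 3 KE mice were the highest for Dbh.

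Th followed Slc6a3 from mouse to mouse with a smaller range, 1.90-fold at its brighter probe (chr7:150078703-150078762, mm9). The signal was 12.88, 13.38 and 12.70 in WT, 12.66, 12.80 and 12.67 in KO, 12.62, 12.87 and 12.46 in exercised WT, and 12.68, 13.03 and 12.67 in KE. The arrays in first and second place, WT replicate 2 and KE replicate 2, were the same as for Slc6a3, and the groups overlapped. The exon-junction probe of Th read 8.51, 9.11 and 8.46 in WT, 8.34, 8.59 and 8.47 in KO, 8.56, 8.77 and 8.20 in exercised WT, and 8.57, 8.97 and 8.54 in KE. It placed the same 3 arrays, replicates 2 of WT, KE and exercised WT, above the other 9. After each slide's mean was subtracted, the Pearson correlation over the 12 arrays was 0.97 between the Th probes, and 0.94 and 0.89 between Slc6a3 and the brighter and dimmer Th probe. These are descriptions over arrays that share slides and normalization, and over the 10 arrays other than WT and KE replicate 2 the last pair fell to 0.72 and 0.58. For Th the log2 fold changes of KO versus WT, KE versus KO, exercised WT versus WT and KE versus exercised WT were -0.28, 0.08, -0.34 and 0.14, each ± 0.18, and the lowest unadjusted p was 0.0839. Leaving out single arrays gave -0.42 to -0.08 in KO versus WT and -0.48 to -0.14 in exercised WT versus WT.

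The genes most like Slc6a3 over the 12 arrays, by the correlation after subtraction of slide means, were Aldh1a7, an aldehyde dehydrogenase (0.943), Th (0.938) and Chrna6, a nicotinic receptor subunit of dopamine neurons (0.937). Without that subtraction the values were 0.943, 0.906 and 0.912. Those most like Th were Slc6a3, Wdr1, an actin-binding protein (0.912), and Pitx3, a homeodomain factor of midbrain dopamine neurons (0.908), with 0.906, 0.909 and 0.883 without the subtraction. Over the 10 arrays other than WT and KE replicate 2, the correlations of Aldh1a7 and Chrna6 with Slc6a3 were 0.707 and 0.838, and that of Pitx3 with Th was 0.555.

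Most tested markers of midbrain dopamine neurons were highest in the mouse with the highest Slc6a3. Of 13 genes on that list, 11 were tested, and 8 of those 11 had their highest signal of the 12 arrays in WT replicate 2: Pitx3, Foxa1, Lmx1a, Lmx1b, Chrna6, Ret, Aldh1a1 and Nr4a2. The other 3, En2, Sncg and Slc10a4, were highest in WT replicate 3, KO replicate 1 and exercised WT replicate 3. Of all tested probes, 7.54% were highest on that array. Chrna6 read 7.83, 10.01 and 7.30 in WT, 8.52, 7.15 and 8.83 in KO, 8.18, 8.71 and 7.51 in exercised WT, and 7.50, 9.57 and 8.37 in KE. The order of the first pair of arrays was that of Slc6a3, with KO replicate 3 next. Pitx3 was 6.26 in WT replicate 2 and 5.68 in KE replicate 2, and between 4.62 and 5.16 in the other 10 mice. Ret, the receptor of glial neurotrophic factors, was 10.94 and 10.71 in the same pair. The transcription factors Lmx1a and Foxa1, which posterior hypothalamic neurons also use, put KO replicate 3 second (9.24 and 9.64) behind WT replicate 2 (9.47 and 9.96), as did Lmx1b (8.84, with KE replicate 2 at 8.82), and Nr4a2 put exercised WT replicate 2 second (11.14, with KE replicate 2 at 11.11), whereas Slc6a3 in KO replicate 3 was 9.74, among the 9 lower arrays. Foxa2, which was not tested, was 7.63 in WT replicate 2, 7.19 in KO replicate 3 and 6.84 in both exercised WT and KE replicate 2.

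The summed linear signal of the 13 midbrain genes was 24681 in WT replicate 2 and 21363 in KE replicate 2, and between 15658 and 19726 in the other mice. Without Aldh1a1, the gene with the highest signal, the sums were 15961 and 13474 in these 2 mice and at most 12944 elsewhere. En1, a defining factor of midbrain dopamine neurons, was well above background on 0 arrays, whereas its relative En2 was on all 12. The part of midbrain tissue in the mouse-to-mouse differences of Slc6a3 and Th was not tested. As a group comparison, 0 of the 11 tested midbrain genes met the screening criterion in any pair of groups, with medians of the log2 fold change of -0.01, 0.08, -0.07 and 0.08 for KO versus WT, KE versus KO, exercised WT versus WT and KE versus exercised WT. Fitted with the slide as a block these medians were -0.15, -0.16, -0.43 and 0.08, so that the second turned sign. An unadjusted p under 0.05 was found for 5.47%, 21.1%, 25.9% and 6.71% of all tested probes in these pairs, and for 1, 2, 2 and 1 of the 11 genes. They were En2 in each pair (lower in KO versus WT and exercised WT versus WT, higher in KE versus KO and KE versus exercised WT), Sncg in KE versus KO and Aldh1a1 in exercised WT versus WT. With the slide as a block En2 alone had such a p, in KO versus WT (-0.65) and in KE versus exercised WT (0.50), and in KE versus KO and between exercised WT and WT it was 0.51 and -0.64 (unadjusted p of 0.0626 and 0.0647). In the interaction of swimming with genotype En2 met the criterion, with 7.63, 7.86 and 8.22 in WT, 7.45, 7.05 and 7.30 in KO, 7.06, 7.40 and 7.46 in exercised WT and 7.91, 7.80 and 7.72 in KE (log2 difference 1.14 ± 0.23, unadjusted p = 0.000587, adjusted p = 0.477 by limma). WT and KE lay above KO and exercised WT without overlap for En2.

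**Figure D2:**
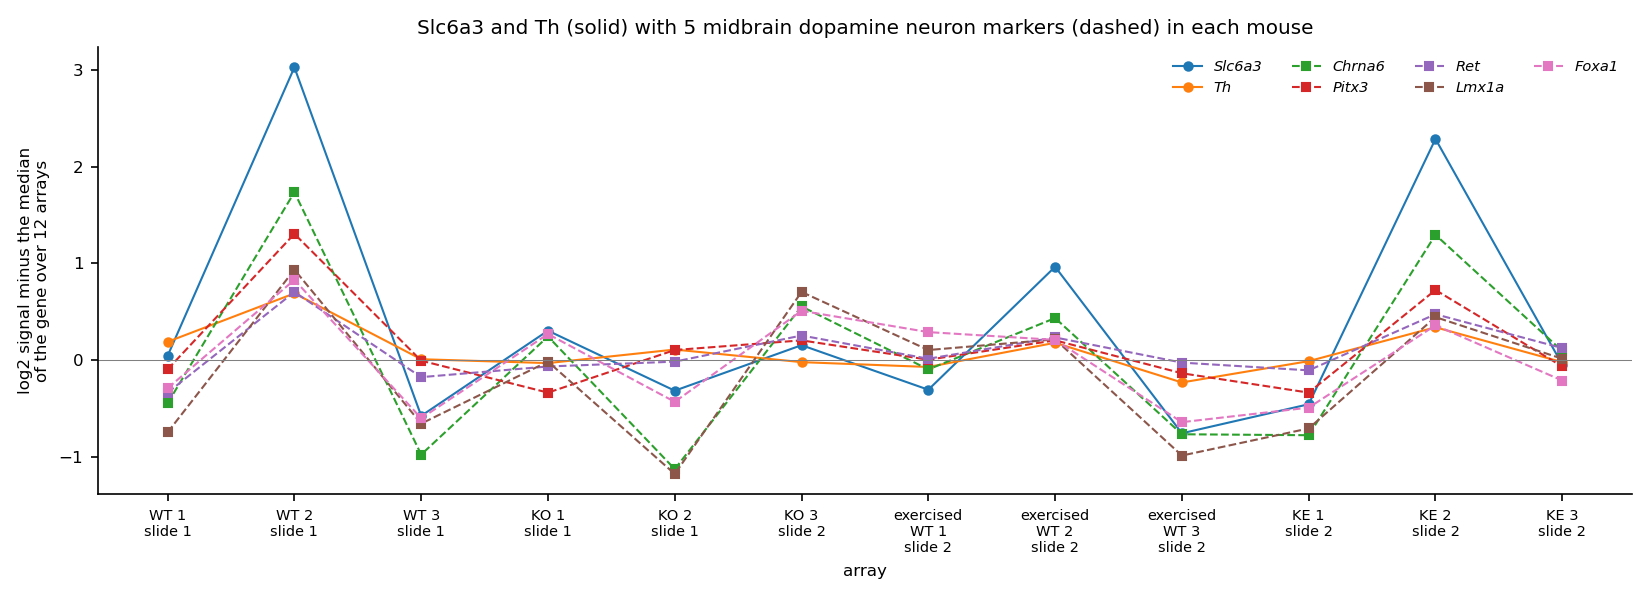
Normalized log2 signal minus the median of each gene over 12 arrays, by array, for Slc6a3 and Th (solid lines) and 5 midbrain dopamine neuron markers (dashed lines) of the 8 that were highest in WT replicate 2, without the 3 tested markers that were highest elsewhere (En2, Sncg and Slc10a4); lines join arrays only to show one gene. The 7 genes drawn peaked in WT replicate 2, where Slc6a3 was 12.61 and Chrna6 10.01, and 5 of them had their second-highest value in KE replicate 2, with Lmx1a and Foxa1 second in KO replicate 3.

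Ddc and Slc18a2, which many monoamine neurons share, formed a second pair. Slc18a2 read 11.34, 11.59 and 10.78 in WT, 11.45, 10.93 and 11.11 in KO, 11.19, 10.98 and 10.66 in exercised WT, and 11.10, 11.39 and 10.85 in KE (chr19:59370102-59370161, mm9). WT replicate 2 was again the highest, but KO replicate 1 came second. The groups overlapped, and the log2 fold changes lay within their SE of 0.23 in KO versus WT (-0.07), KE versus KO (-0.05) and KE versus exercised WT (0.17), while exercised WT versus WT gave -0.29 (unadjusted p = 0.240). With single arrays left out, the value in exercised WT versus WT ran from -0.52 to -0.11. The Pearson correlation with Ddc over the 12 arrays was 0.95 after subtraction of slide means, 0.77 without it and 0.92 over the 10 arrays other than WT and KE replicate 2. After Ddc, the genes most like Slc18a2 were Adcyap1, the neuropeptide PACAP (0.927, and 0.933 without the subtraction), and Tmem163, a zinc transporter of vesicles (0.924 and 0.908). After Slc18a2, those most like Ddc were 4930554G24Rik (0.950, and -0.401 without the subtraction) and Stx3, a syntaxin (0.921 and 0.779).

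Ddc was the member whose exercised WT mice lay below WT mice, at both of its probes. The dimmer probe read 9.32, 9.46 and 9.00 in WT, 9.24, 9.08 and 8.93 in KO, 8.89, 8.67 and 8.49 in exercised WT, and 8.87, 9.01 and 8.69 in KE. All 3 exercised WT arrays were under all 3 WT arrays, by a log2 fold change of -0.58 ± 0.15 (unadjusted p = 0.00274, adjusted p = 0.0933 by limma), which did not pass the adjusted threshold. In that comparison 37.6% of all tested probes did not overlap between groups and 25.9% had an unadjusted p under 0.05. The brighter probe (chr11:11714166-11714225, mm9) read 13.95, 14.09 and 13.74 in WT and 13.71, 13.68 and 13.51 in exercised WT, also without overlap, and differed by -0.29 ± 0.12 (unadjusted p = 0.0337, adjusted p = 0.163). The KO arrays were 14.01, 13.89 and 13.63 and the KE arrays 13.66, 13.77 and 13.56 at that probe. Its 5 arrays on the first slide spanned 13.74 to 14.09 and the 7 on the second 13.51 to 13.77, with KO replicate 3 among the latter. With the slide as a block, the log2 fold change in exercised WT versus WT was -0.35 ± 0.26 at the dimmer probe (unadjusted p = 0.211) and 0.03 ± 0.18 at the brighter one, so that swimming and slide cannot be told apart here. Without KO replicate 3 the adjusted p of the dimmer probe in exercised WT versus WT was 0.0255, and without each of the other arrays it stayed above the threshold. In that fit without KO replicate 3, 6333 of 35230 tested probes passed the adjusted threshold in exercised WT versus WT, against 0 with all arrays. For Ddc, KE versus exercised WT, read within a slide, gave 0.17 ± 0.15 and 0.03 ± 0.12.

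**Figure D3:**
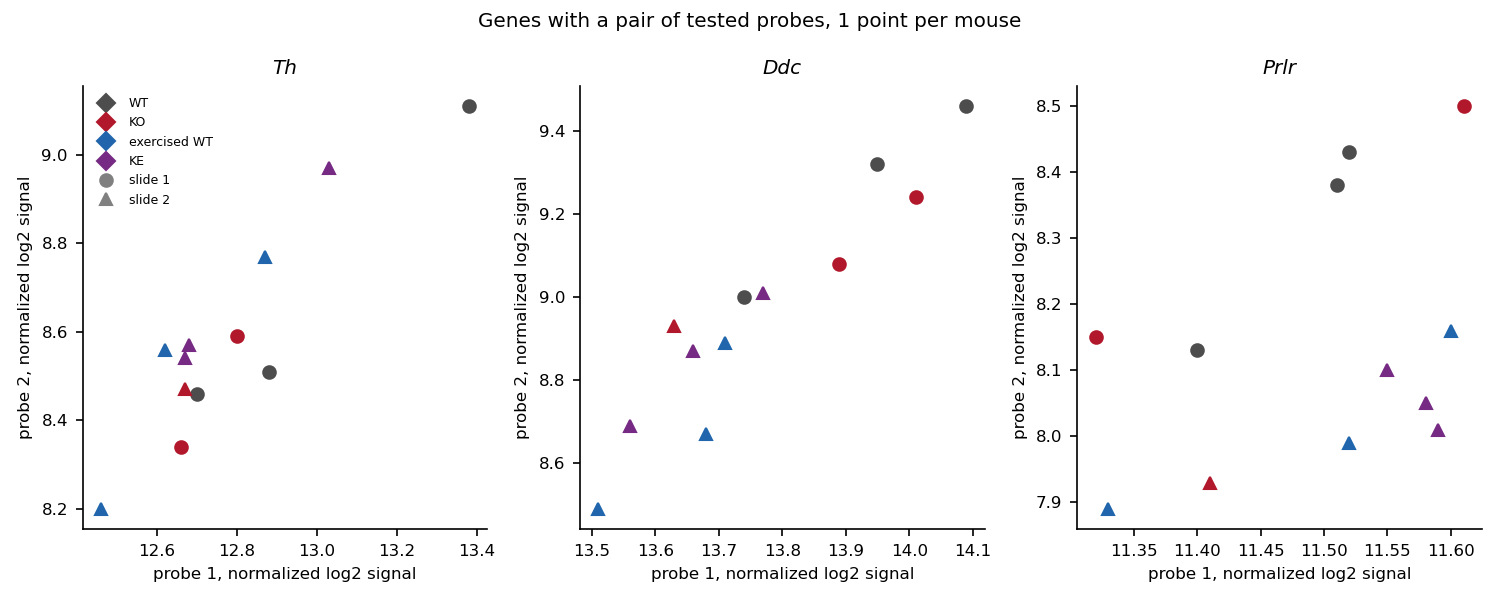
Normalized log2 signals of the brighter (horizontal axis) and dimmer (vertical axis) tested probes of Th, Ddc and Prlr, with 1 point per mouse, colored by group and shaped by slide. Both Th probes rank WT replicate 2 first and KE replicate 2 second, the Ddc points of slide 1 lie mostly above those of slide 2, and among Prlr points with a like signal at the brighter probe, those of slide 1 lie above those of slide 2.

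Gch1 hardly varied, with a range of 1.34-fold (chr14:47775348-47775407, mm9). It read 9.35, 9.62 and 9.20 in WT, 9.49, 9.50 and 9.52 in KO, 9.61, 9.46 and 9.30 in exercised WT, and 9.44, 9.45 and 9.21 in KE. The 3 KE arrays lay under the 3 KO arrays, in a comparison where 21.5% of all tested probes did not overlap. The log2 fold change of Gch1 was -0.14 ± 0.12 and did not pass the test (unadjusted p = 0.259, adjusted p = 0.499 by limma). The genes most like it were Tmem258, a subunit of the glycosylation complex (0.928, and 0.922 without subtraction of slide means), Efcab1 (0.927 and 0.927) and Trip10 (0.913 and 0.906).

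The cofactor genes around Gch1 were all tested, 7 of 7. None met the screening criterion or an adjusted p under 0.05 in any comparison, and those with an unadjusted p under 0.05 were 0 higher and 3 lower in KE versus KO, 0 higher and 1 lower in exercised WT versus WT, and 0 in the other 3. Over all tested probes the shares with such a p were 21.1% and 25.9% in these comparisons, and with the slide as a block 0 of the 7 genes had one in either. The gene with the highest signal was Qdpr, dihydropteridine reductase, which recycles the cofactor and lay between 15.60 and 15.80. The medians of the log2 fold change were 0.01, -0.13, -0.09 and -0.04 in KO versus WT, KE versus KO, exercised WT versus WT and KE versus exercised WT, beside -0.01, -0.04, -0.04 and -0.01 over all tested probes, and the slide block turned that of exercised WT versus WT to 0.06.

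Dbh was the 1 member past the screening criterion. Its brighter probe (chr2:27038665-27038724, mm9) read 4.80, 4.57 and 4.65 in WT, 4.35, 4.32 and 4.04 in KO, 4.36, 4.59 and 4.24 in exercised WT, and 5.03, 6.90 and 5.09 in KE. All 3 KE mice lay above the other 9, and KE replicate 2 lay far above the other KE mice. The log2 fold change was 1.43 ± 0.40 in KE versus KO (unadjusted p = 0.00528, adjusted p = 0.152 by limma), 1.28 ± 0.40 in KE versus exercised WT (0.0102 and 0.661) and 1.72 ± 0.57 in the interaction of swimming with genotype (0.0133 and 0.560). These 3 met that criterion, and none passed the adjusted threshold. With the slide as a block they were 1.64 ± 0.59, 1.28 ± 0.42 and 1.61 ± 0.63, also past the criterion. Correcting the background by normexp gave 0.55, 0.47 and 0.56, and the methods' t-test gave unadjusted p of 0.08185 and 0.109 in KE versus KO and KE versus exercised WT, all short of the criterion. KE, with its high replicate 2, serves in all 3 of these comparisons, and KO and exercised WT serve in more than 1, so the comparisons are not independent. Without KE replicate 2 the values were 0.82, 0.66 and 1.10, and only the interaction still met the criterion. The unadjusted p by limma were then 0.000135, 0.000624 and 0.000135, with adjusted p of 0.198, 0.785 and 0.595. Both pairs of groups fell short in fold change alone. In KO versus WT and exercised WT versus WT the log2 fold changes were -0.44 ± 0.40 and -0.28 ± 0.40 (unadjusted p of 0.303 and 0.503), although the 3 KO arrays lay below the 3 WT arrays. Without KE replicate 2, whose spread enters the shared error, the unadjusted p in KO versus WT was 0.00434 (adjusted p = 0.903). By the methods' t-test with no array left out it was 0.02205 (adjusted p = 0.957), at a fold change under 2.

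The signal of Dbh was near background. The brighter probe was well above background on 2 of 3 WT arrays, 1 of 3 KO arrays and all exercised WT and KE arrays, and on KE replicate 2 the dimmest probe with that call read 4.13. The dimmer probe printed above was well above background on 0 of 12 arrays and read 3.48, 2.42 and 1.93 in KE and 2.75, 1.96 and 3.59 in KO, so that the high value of KE replicate 2 was seen at 1 probe only. Of 5 noradrenergic and adrenergic markers, the noradrenaline transporter Slc6a2 was well above background on 0 arrays, and 2 were tested. The summed signal of the 5 was 76 in KE replicate 2 and ran from 61 to 100 over all mice, with Pnmt, which makes adrenaline, at the highest signal. None of the 2 met the criterion in any comparison. The genes most like Dbh were St7 (0.938, and 0.922 without subtraction of slide means), Gcn1l1 (0.909 and 0.891) and Gm10204 (0.903 and 0.884).

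Prlr hardly varied at its brightest probe, with a range of 1.22-fold (chr15:10259066-10259125, mm9). It read 11.51, 11.40 and 11.52 in WT, 11.32, 11.61 and 11.41 in KO, 11.33, 11.60 and 11.52 in exercised WT, and 11.59, 11.55 and 11.58 in KE. The groups overlapped, and the log2 fold changes ran from -0.03 to 0.12 with an SE of 0.09 over the 4 pairs of groups. The dimmer tested probe read 8.38, 8.13 and 8.43 in WT, 8.15, 8.50 and 7.93 in KO, 7.89, 8.16 and 7.99 in exercised WT, and 8.01, 8.10 and 8.05 in KE. In exercised WT versus WT it gave a log2 fold change of -0.30 ± 0.14 (unadjusted p = 0.0498, adjusted p = 0.193), with overlap, and was 0.09 ± 0.20 with the slide as a block. The 5 arrays of the first slide had a median of 8.38 and the 7 of the second a median of 8.01. The correlation between these probes over the 12 arrays was 0.88 after subtraction of slide means and 0.39 without it. The probe for the second transcript (chr15:10278249-10278308, mm9) was well above background on 2 arrays, 1 KO and 1 exercised WT. The genes most like Prlr were Parg, Tcerg1l and Ecel1, with 0.891, 0.875 and 0.872 after the subtraction and 0.428, 0.441 and 0.483 without it.

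Of 11 genes of prolactin signaling, 10 were tested, and 0 met the criterion or an adjusted p under 0.05 in any comparison. The gene with the highest signal was Stat3, a transcription factor that cytokine receptors activate, at 12.23 to 12.67. An unadjusted p under 0.05 was reached by 1, 2, 1, 2 and 1 of the 10 in KO versus WT, KE versus KO, exercised WT versus WT, KE versus exercised WT and the interaction, where 5.47%, 21.1%, 25.9%, 6.71% and 7.76% of all tested probes did. Their log2 fold changes were 0.30 for Cish in the first, -0.48 for Socs2 and 0.53 for Stat5a in KE versus KO, -0.34 for Socs1 between exercised WT and WT, 0.22 for Socs1 and 0.44 for Stat5a between KE and exercised WT, and 0.34 for Socs1 in the interaction. With the slide as a block Socs2 and Stat5a were -0.05 and 0.07 in KE versus KO, Socs1 was -0.22 between exercised WT and WT (unadjusted p = 0.195) and Cish was 0.30 between KO and WT (0.0858), none with a p under 0.05. Socs2 then had one in the other 4 comparisons, at 0.27, 0.58, -0.36 and -0.62, and the counts over the 10 were 2, 0, 1, 3 and 2. Cish and the Socs genes encode inhibitors that cytokine receptors induce, and Stat5a the factor through which the prolactin receptor acts. Prolactin itself (Prl) was well above background on 3 arrays, and the summed signal of 9 anterior pituitary genes ran from 217 to 3322, with KO replicates 1 and 2, exercised WT replicate 3 and KE replicate 1 at 1784 to 3322 and the other mice at 217 to 309. Of these 9, 2 were tested, 3 were well above background on 0 arrays, and 0 met the criterion. Cga, the shared hormone subunit, carried the high sums, at 11.51 and 10.58 in KO replicates 1 and 2, 10.72 in exercised WT replicate 3, 10.87 in KE replicate 1 and 1.85 to 5.90 elsewhere. Lhb, with the highest mean log2 signal, read 7.13 to 7.18 in WT and 7.34 to 7.66 in the other 9 mice. Its log2 fold changes were 0.35 between KO and WT, 0.43 between exercised WT and WT and -0.45 in the interaction (unadjusted p of 0.00155, 0.000396 and 0.00282, adjusted p of 0.847, 0.0933 and 0.477), and 0.30, 0.26 and -0.40 with the slide as a block, the second with an unadjusted p of 0.0835. Tshb, the other tested gene, went the opposite way between KO and WT, with -0.22 (unadjusted p = 0.0463, adjusted p = 0.847) and -0.32 with the slide as a block.

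Over all members, the group comparisons gave few calls, given here beside the shares of the whole array. Wherever a member met the screening criterion it was Dbh at 1 probe, and among 10 probes a single call already exceeds the shares of the whole array. No comparison of shares was therefore drawn for the criterion. In KO versus WT, 0 of 10 member probes met the screening criterion (0.227% of all tested probes), 0 had an adjusted p under 0.05 (0%), 0 had an unadjusted p under 0.05 (5.47%), and 1, of Dbh, did not overlap between groups (8.63%). In KE versus KO, 1 of 10 met the criterion (1.21%), 0 passed the adjusted threshold (0.0199%), 1 had an unadjusted p under 0.05 (21.1%), and 2, of Dbh and Gch1, did not overlap (21.5%). In exercised WT versus WT the counts were 0 for the criterion (2.19%), 0 for the adjusted p (0%), 3 for the unadjusted p (25.9%) and 2, both of Ddc, without overlap (37.6%). In KE versus exercised WT they were 1 (0.25%), 0 (0%), 1 (6.71%) and 1 (19.6%), all of Dbh. In the interaction 1 met the criterion (0.602%), 0 the adjusted threshold (0%) and 1 the unadjusted p (7.76%). For the unadjusted p and for overlap in exercised WT versus WT and KE versus KO, the members' shares lay near or below those of the whole array. The median log2 fold change of the 10 probes was -0.15, 0.02, -0.29 and 0.16 in KO versus WT, KE versus KO, exercised WT versus WT and KE versus exercised WT, and 0.30 in the interaction, beside -0.01, -0.04, -0.04, -0.01 and -0.01 over all tested probes. Over the brightest probe of each of the 7 genes, the median in exercised WT versus WT was -0.29, and 0.02 with the slide as a block. In the interaction that median was 0.24, and 0.21 with the slide as a block. Without WT and KE replicate 2 together, the interaction of Slc6a3, Slc18a2 and Ddc turned negative, while the other members kept their sign.

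**Figure D4:**
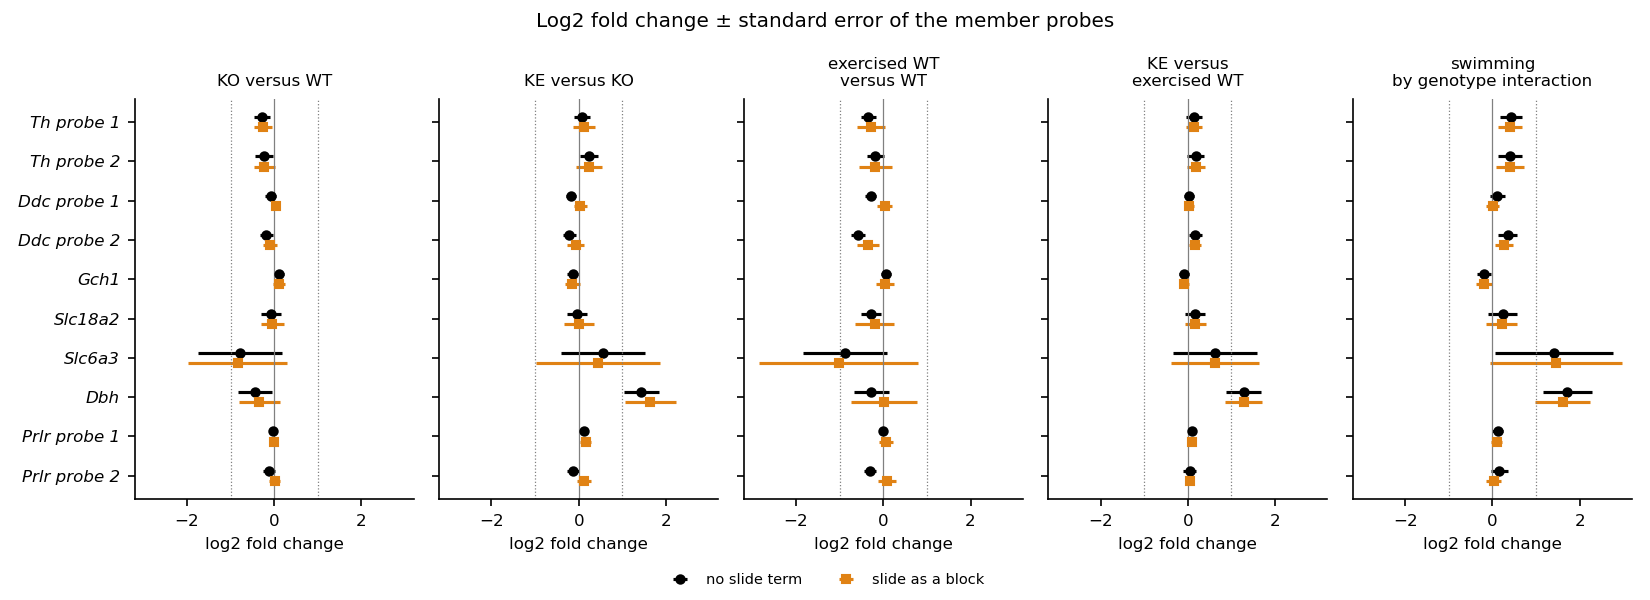
Log2 fold change (points) ± SE (bars) of the 10 tested member probes in 4 pairs of groups and in the interaction of swimming with genotype, without a slide term (black circles) and with the slide as a block (orange squares); dotted lines mark a fold of 2. Dbh lies beyond the dotted line in KE versus KO, KE versus exercised WT and the interaction, and Slc6a3 in the interaction (1.41 ± 1.35) and, with the slide as a block, in exercised WT versus WT (-1.02 ± 1.82), and the bars of Slc6a3 are the widest in every panel.

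Of the dopamine receptors, 3 of 5 were tested: Drd1, Drd2 and Drd5, while Drd4 was well above background on 0 arrays and Drd3 on 2. None met the criterion. At an unadjusted p under 0.05, Drd2 gave in KE versus KO a log2 fold change of -0.49 ± 0.15 (unadjusted p = 0.00837, adjusted p = 0.161) and Drd1, the receptor with the highest signal, gave in KE versus exercised WT -0.71 ± 0.29 (0.0318 and 0.724). Drd2 read 5.68, 5.84 and 6.08 in KO and 5.18, 5.53 and 5.41 in KE, without overlap, in a comparison where 21.1% of all tested probes had an unadjusted p under 0.05 and 21.5% did not overlap. Drd1 in exercised WT replicate 3 was 10.70 and between 9.10 and 9.92 in the other mice. Of 9 striatal genes, Drd1 itself among them, 7 were highest in that mouse (8.16% of all tested probes were), and their summed signal was 88536 in exercised WT replicate 3 and 60219 to 69160 elsewhere, and with Penk, the brightest probe, left out it was 43615 against 31385 to 38327. All 9 were tested, and Adora2a met the criterion in KE versus exercised WT (5.64, 6.99 and 8.07 in exercised WT and 5.69, 5.39 and 5.63 in KE, log2 fold change -1.33 ± 0.51, unadjusted p = 0.0263, adjusted p = 0.710). The part of striatal tissue in the Drd1 difference was not tested.

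Breakdown and uptake genes showed no call. Of 10, 9 were tested and Slc6a2 was well above background on 0 arrays. Genes with an unadjusted p under 0.05 numbered 0 between KO and WT, 1 between KE and KO (lower), 3 between exercised WT and WT (1 higher and 2 lower) and 0 between KE and exercised WT, beside 21.1% and 25.9% of all tested probes between KE and KO and between exercised WT and WT, and 0 in both with the slide as a block. The medians of the log2 fold change were 0.00, -0.11, -0.03 and -0.01, and the slide block turned the third to 0.09.

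Transcription factors of hypothalamic dopamine neurons were tested for all 9 genes, and none met the criterion or the adjusted threshold. Otp, a homeodomain factor of the group that forms the periventricular dopamine neurons, had the highest signal at 12.44 to 13.15. Only exercised WT versus WT held a gene with an unadjusted p under 0.05, Otp itself, at -0.29 ± 0.13 (unadjusted p = 0.0438, adjusted p = 0.182), 1 of 9 genes beside 25.9% of all tested probes. Fitted with the slide as a block, Otp was at -0.37 ± 0.23 (unadjusted p = 0.150). The medians were -0.07, -0.06, -0.07 and -0.05 in the 4 pairs of groups, and the slide block turned those of KE versus KO and exercised WT versus WT to 0.13 and 0.12. Nr4a2, which stands on this list and on the midbrain list, read 11.37 in WT replicate 2 and 10.32 to 11.14 in the other mice.

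Among markers of other monoamine neurons, Tph2, Slc6a4 and Fev of serotonin neurons were not tested and Tph1 was well above background on 0 arrays, leaving Gata3 as the 1 of 5 tested, at 6.17 in WT replicate 2, 6.11 in KE replicate 2 and 4.05 to 5.69 elsewhere. All 4 histamine neuron genes were tested, and Hdc, which makes histamine, lay between 11.93 and 12.80 with 0 of the 4 past the criterion or at an unadjusted p under 0.05. Among 13 choroid plexus genes, 12 were tested, Enpp2 had the highest signal, and the transport protein Ttr ranged from 5.53 in KO replicate 1 to 10.79 in exercised WT replicate 2. Aqp1 met the criterion in exercised WT versus WT (log2 fold change 1.01 ± 0.43, unadjusted p = 0.0392, adjusted p = 0.173) and was 0.39 ± 0.77 with the slide as a block. The summed choroid plexus signal ran from 19516 to 24986, with WT replicate 2 at 23475 and KE replicate 2 at 20201.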

How the data were processed

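Cy3-labeled hypothalamus RNA was measured on single-color Agilent mouse arrays. The deposited scanner files hold the intensity of each spot, which Feature Extraction 10.7.1.1 had background-subtracted per the submitters' processing notes. A second table from the authors holds quantile-normalized log2 values and gave the gene symbols. The authors' tables of differential genes, with fold changes, p-values and 24 columns of sample values, were not used.

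Control and outlier spots were dropped, processed signals were put on the log2 scale, averaged per probe and quantile-normalized. Member values lay within 0.004 of the authors' table. Detected probes were tested with limma 3.58.1 in R 4.3.3, with a model of group means over the 12 arrays and Benjamini-Hochberg adjustment over 35230 probes, checked on simulated data. A call was an adjusted p under 0.05, or the screening criterion, a fold change of 2 or more with an unadjusted p no higher than 0.05. Every probe of the members was named and the brightest stood for its gene. From the other lists, genes past a call, the brightest gene and the 3 genes most like each member were named, and the others named were chosen after their values were seen. A few genes of these lists are not reported here by name. The members and lists were chosen with earlier results of these data known. The number of mice limits the precision. Alternatives were normexp, 75th percentile scaling, the authors' table, the slide and the replicate number as blocks, no detection filter, outlier spots kept, probes averaged, the methods' t-test and arrays left out.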

Additional observations from a re-analysis of the deposited data

Results flagged for a closer look

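The brighter Dbh probe was the member probe whose test of the interaction, the difference between genotypes in the effect of swimming, met the screening criterion, although it did not pass the adjusted threshold. The swimming effect in knockout mice minus that in wild-type mice was 1.72 on the log2 scale, with an unadjusted p of 0.0133 and an adjusted p of 0.560 by limma. It was 1.10 without KE replicate 2, and under normexp 0.56 with an unadjusted p of 0.0506, short of the criterion. Single outlying arrays were not tested in groups of 3, and the high Slc6a3 values of WT and KE replicate 2 and the high Dbh value of KE replicate 2 are given as values above.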

How the results depend on the processing

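The number of arrays limits all values, and Dbh, near background, is limited further. With the slide as a block, 5 signs of the brightest probes turned, to values of 0.04 or less: Ddc 0.03 between KO and WT, 0.04 between KE and KO and 0.03 between exercised WT and WT, Slc18a2 0.01 in KE versus KO, and Dbh 0.02 in exercised WT versus WT. The dimmer tested Prlr probe turned from -0.12 to 0.01, from -0.14 to 0.12 and from -0.30 to 0.09 in KO versus WT, KE versus KO and exercised WT versus WT. With probes averaged per gene, Prlr turned to -0.01 between KE and KO and -0.15 between exercised WT and WT. An alternative chosen after seeing the data left out WT and KE replicate 2 together. It turned Slc6a3 to 0.31, -0.30, 0.23 and -0.22 in KO versus WT, KE versus KO, exercised WT versus WT and KE versus exercised WT and to -0.53 in the interaction, Ddc to 0.00 in KO versus WT, -0.02 in KE versus exercised WT and -0.02 in the interaction, Slc18a2 to 0.10 in KO versus WT and -0.08 in the interaction, Th to -0.04 in KE versus KO and Prlr to -0.04 in exercised WT versus WT.

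Leaving out each array in turn gave these log2 ranges where a sign turned. In KO versus WT they were -0.17 to 0.03 for Ddc, -0.30 to 0.10 for Slc18a2, -1.49 to 0.31 for Slc6a3 and -0.11 to 0.04 for Prlr. In KE versus KO they were -0.04 to 0.15 for Th, -0.19 to 0.10 for Slc18a2 and -0.30 to 1.07 for Slc6a3. In exercised WT versus WT they were -0.03 to 0.18 for Gch1, -1.57 to 0.23 for Slc6a3 and -0.05 to 0.08 for Prlr. In KE versus exercised WT they were -0.03 to 0.09 for Ddc and -0.22 to 1.15 for Slc6a3, and in the interaction, where no sign turned, 0.01 to 0.21 for Ddc and 0.32 to 2.11 for Slc6a3. The cause was not tested.

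The count of member probes past the criterion in KE versus KO and in KE versus exercised WT, 1 in each, was 0 under normexp, 0 by the methods' t-test, 0 without WT and KE replicate 2, and 0 to 1 over single arrays left out, with 0 without KE replicate 2. In the interaction it was 0 under normexp and 2 with no detection filter, and in KO versus WT it was 1 with no detection filter, where the Prlr probe for the second transcript, not well above background in WT, was added. Dbh under normexp was 0.55, 0.47 and 0.56 in KE versus KO, KE versus exercised WT and the interaction, and the methods' t-test gave unadjusted p of 0.08185 and 0.109 in the first pair. Scaling by the 75th percentile, the authors' table, outlier spots kept and the replicate block turned no sign and moved no call of a brightest probe.

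Over the whole array, probes past the criterion numbered 80, 427, 771, 88 and 212 in KO versus WT, KE versus KO, exercised WT versus WT, KE versus exercised WT and the interaction. Leaving out single arrays gave 68 to 209 in KO versus WT, with 125, 206 and 209 without WT replicate 1, KO replicate 1 and KO replicate 2, and 124 to 1188 in KE versus KO, with 133, 124, 1188 and 256 without KO replicates 1, 2 and 3 and KE replicate 1. The counts were 2, 124, 260, 4 and 12 under normexp and 489, 1016, 1526, 809 and 957 with no detection filter, and averaging per gene gave 32, 119, 222, 35 and 94 genes. The methods' t-test gave 24, 57 and 51 in KO versus WT, KE versus KO and KE versus exercised WT, and the slide as a block 170 and 279 in KE versus KO and exercised WT versus WT. Probes with an adjusted p under 0.05 numbered 7 in KE versus KO and 0 in the other comparisons, 8589 between KE and KO and 6333 in exercised WT versus WT without KO replicate 3, 1620 in exercised WT versus WT by the methods' t-test, and at most 19 otherwise. Over the whole array the replicate numbers showed little pairing of the mice: deviations of same-numbered mice correlated over 0.1 in 4 of 18 pairs (median 0.006). With the replicate block Dbh was 1.43 in KE versus KO and no probe of the array passed the adjusted threshold there. For Ddc in exercised WT versus WT, that block lowered the SE from 0.15 to 0.09 at the dimmer probe and from 0.12 to 0.07 at the brighter one. Pairing of the member genes was not tested.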
